A study of Mus musculus with 4 samples.

Results

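The Hox genes of the mouse were examined for open chromatin in im-scWAT cells, an immortalised preadipocyte culture from subcutaneous white adipose tissue. Members were the 39 protein-coding genes of the mm9 annotation named Hoxa, Hoxb, Hoxc or Hoxd with a number, among 22225 coding genes in all. They form 4 clusters, and each cluster was taken with 50 kb on each side of its outermost genes. The 4 windows spanned 892 kb: HoxA at chr6:52055366-52260874 with 11 genes, HoxB at chr11:96005630-96279570 with 10, HoxC at chr15:102701534-102917274 with 9 and HoxD at chr2:74456367-74653200 with 9. ATAC-seq maps accessible DNA by letting the Tn5 transposase insert adapters into it, and each library was deposited as a list of peaks. WT cells were derived from Jmjd1a +/+ mice and HY cells from Jmjd1a HY/HY mice, whose JMJD1A, a demethylase of histone H3 lysine 9, carries a histidine-to-tyrosine change in the catalytic domain. Nuclei were collected before differentiation (D0) or after 2 days in indomethacin, dexamethasone, 3-isobutyl-1-methylxanthine, rosiglitazone, insulin and T3 and a further 6 days in insulin, T3 and rosiglitazone, a protocol for beige adipocytes (D8). Each of the 4 groups had 1 library, so no difference below has a replicate check, and all intervals cover counting error only. A difference between genotypes cannot be told apart from one between the cell cultures.

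Hox genes encode homeodomain transcription factors that give cells a position along the body axis. Within a cluster they lie in the order in which they are used from head to tail, with paralogue group 1 at the anterior end and group 13 at the posterior end. Mesenchymal cells, adipose precursors among them, keep a pattern of active Hox genes that reflects the depot they came from. Silent Hox genes are typically held by Polycomb group proteins, and active ones by Trithorax group methyltransferases.

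The WT D0 list held 93 peaks with a summit in the Hox windows of 71523 in all, the WT D8 list 66 of 41228, the HY D0 list 111 of 77994 and the HY D8 list 71 of 48964. Overlapping peaks of the 4 lists merged into 126 Hox sites of 100904 sites in the genome, 31 in HoxA, 42 in HoxB, 51 in HoxC and 2 in HoxD. The genome-wide background of a list, which scales with its depth, was 0.659 overlapping tags at D0 and 0.531 at D8 for WT, and 0.708 and 0.494 for HY. Where 4 values follow each other below, they stand in this order: WT at D0, WT at D8, HY at D0, HY at D8. The strength of a site is given as its summit pileup, the number of overlapping tags at the summit, and the lowest pileup called was 4 or 5 in every list. A place without a peak was therefore not detectably open at this depth, which is not the same as closed. At promoters of the marker genes, adipocyte genes (Adipoq, Fabp4, Plin1, Cidec, Pparg) had peaks at 1, 5, 1 and 5 of 5 genes, and preadipocyte genes at 5, 3, 4 and 3 of 5. Endothelial genes had 2, 0, 1 and 0 of 3, and blood and muscle genes had none. Ucp1, the thermogenic uncoupler of brown and beige fat, had no promoter peak in any list, while Cidea and Ppargc1a had promoter peaks at D8 in both genotypes and Cidea also in HY D0.

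The DNA of 10 sites that carry the comparisons below is printed first, 121 bp around each summit, on the plus strand of mm9. Capitals mark matches to the motifs searched, TGATNNAT of PBX-HOX dimers and TGANTCA of AP-1. The first pair was open in all 4 libraries, in an intron of Hoxc6 (chr15:102829798-102829918) and at the Hoxc13 promoter (chr15:102751151-102751271).
Hoxc6 site: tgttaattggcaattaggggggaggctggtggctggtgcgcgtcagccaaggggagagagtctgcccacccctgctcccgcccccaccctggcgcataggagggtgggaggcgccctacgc
Hoxc13 site: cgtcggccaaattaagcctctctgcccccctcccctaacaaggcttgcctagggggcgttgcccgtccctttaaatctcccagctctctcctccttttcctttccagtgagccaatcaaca
The next 5 had peaks at D0 in both genotypes and none at D8, and were the highest of this pattern by -log10 q. Of these, 3 in introns of Hoxa3 (chr6:52135336-52135456), Hoxb3 (chr11:96202494-96202614) and Hoxc4 (chr15:102863323-102863443) hold the same 8 bases, TGATTTAT. The other two, in an intron 4909 bp downstream of a Hoxb3 TSS (chr11:96194225-96194345) and at the Hoxc9 promoter (chr15:102806485-102806605), hold no match to either motif.
Hoxa3 site: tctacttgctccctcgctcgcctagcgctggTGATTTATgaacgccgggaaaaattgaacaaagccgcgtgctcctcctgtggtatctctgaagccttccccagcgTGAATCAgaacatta
Hoxb3 site: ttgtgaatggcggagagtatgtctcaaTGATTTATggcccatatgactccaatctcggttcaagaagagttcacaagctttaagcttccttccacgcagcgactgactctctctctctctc
Hoxc4 site: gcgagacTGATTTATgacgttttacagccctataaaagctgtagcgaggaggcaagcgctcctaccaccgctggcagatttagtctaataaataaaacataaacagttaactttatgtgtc
Hoxb3 downstream: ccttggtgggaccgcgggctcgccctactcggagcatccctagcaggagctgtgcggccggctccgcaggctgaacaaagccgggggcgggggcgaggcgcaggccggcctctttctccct
Hoxc9 site: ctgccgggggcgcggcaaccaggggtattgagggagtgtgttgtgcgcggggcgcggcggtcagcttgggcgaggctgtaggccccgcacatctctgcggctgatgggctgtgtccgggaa
The Hoxa4 site (chr6:52139204-52139324) had peaks at D8 alone, and the site beyond Hoxc4 (chr15:102899865-102899985) had the largest D8 to D0 ratio of summit pileup in both genotypes among sites with peaks on both days. The Hoxd3 site (chr2:74554016-74554136) was the only one between the outermost genes of HoxD.
Hoxa4 site: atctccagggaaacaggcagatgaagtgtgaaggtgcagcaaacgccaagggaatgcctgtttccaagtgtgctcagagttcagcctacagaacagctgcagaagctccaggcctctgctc
Beyond Hoxc4: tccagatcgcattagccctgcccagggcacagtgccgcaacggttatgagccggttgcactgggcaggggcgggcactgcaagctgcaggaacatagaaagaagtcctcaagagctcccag
Hoxd3 site: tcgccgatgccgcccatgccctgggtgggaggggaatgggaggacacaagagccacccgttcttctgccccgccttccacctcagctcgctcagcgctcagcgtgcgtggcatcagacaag

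The clusters were dense in peaks in every library, with HoxD as the exception. The Hox windows held 10.4, 7.40, 12.4 and 7.96 peaks per 100 kb, which was 3.88, 4.78, 4.25 and 4.33 times the density of the assembled chromosomes. Peaks covered 3.69%, 1.52%, 4.36% and 2.09% of the windows in the same order, against 0.959%, 0.454%, 1.12% and 0.566% of the chromosomes. HoxD stood outside this pattern, with 2, 0, 2 and 1 peaks in 197 kb. HoxB had 37, 21, 41 and 24 peaks, HoxC 32, 18, 42 and 24, and HoxA 22, 27, 26 and 22.

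**Figure D1:**
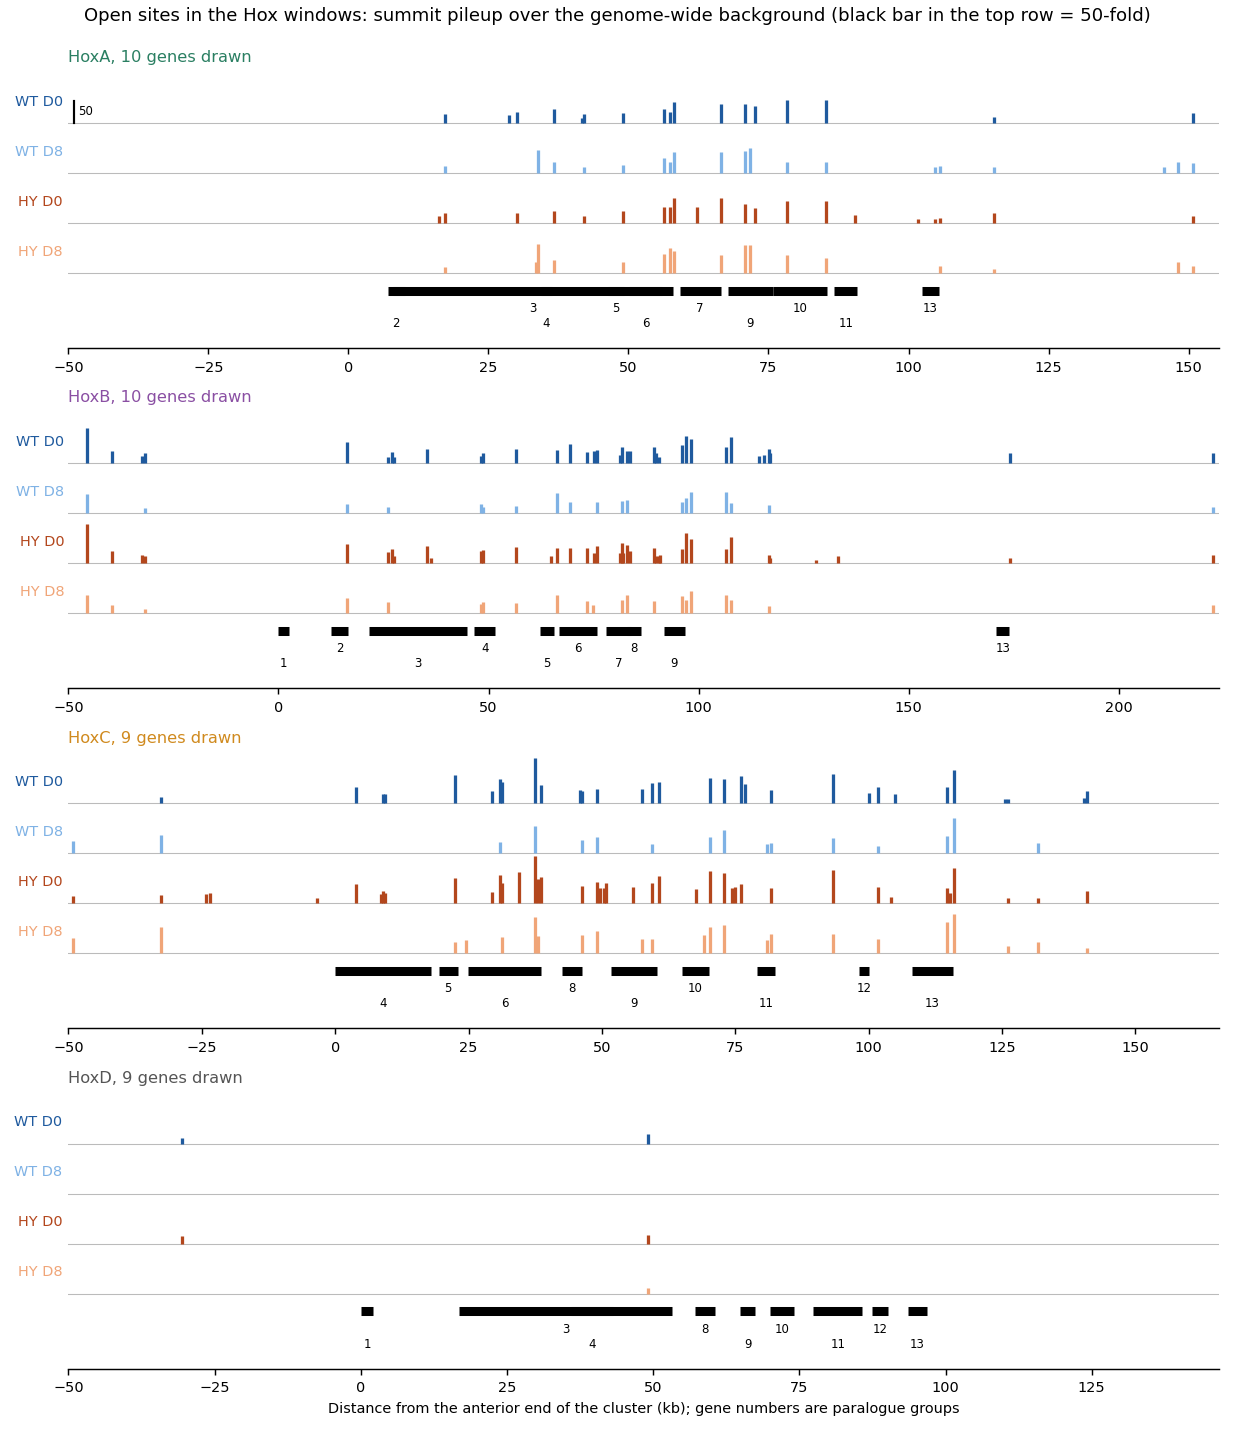
Summit pileup over the genome-wide background (bar height, linear) at 123 of the 126 Hox sites in 4 libraries, against distance in kb from the anterior end of each cluster, with genes as black bars numbered by paralogue group (1 gene and 3 sites not drawn). HoxA, HoxB and HoxC carry bars along most of their length, HoxD carries 2 sites, and the 40.7 kb next to Hoxb13 on the side of Hoxb9 carry none.

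HoxD, whose posterior genes pattern the limbs, had no peak at any of its 9 promoters in any library. Its site in the cluster lay 4.09 kb downstream of a Hoxd3 TSS, in an exon of the non-coding transcript 1700109F18Rik, with pileups of 14 in both D0 libraries and 6 in HY D8 and no peak in WT D8. The other site, 32.8 kb past Hoxd1, was called only before differentiation, at pileups of 8 in WT and 12 in HY. Both sat on background close to the genome average. The caller's local background is a count of tags over 10 kb, and around the Hoxd3 site it came to 76 tags in WT D0, where the genome-wide rate gives 73.2. The longest stretch without a peak covered all 9 HoxD genes in WT D8 (96.8 kb), and 49.0 kb with Hoxd1, Hoxd3 and Hoxd4 had no peak in any library. HoxD thus differed from the other clusters in count and in the tags of its surroundings. In WT D0 the median background of its peaks was 1.02 times the genome-wide rate, against 3.12 in HoxA, 3.85 in HoxB and 5.98 in HoxC, although single sites of HoxA and HoxC also lay near the genome-wide rate. Its D0 sites had lower pileups than the medians of the other clusters, but on the deposited fold its D0 medians of 7.17 in WT and 8.20 in HY were above theirs (4.58 to 6.27).

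Promoters, taken from 1000 bp upstream to 100 bp downstream of any annotated TSS, had a peak for 19 of the 39 Hox genes at D0 in WT cells (48.7%, exact binomial interval 32.4% to 65.2%) and for 16 at D8 (41.0%, 25.6% to 57.9%). For HY cells the numbers were 21 at D0 (53.8%, 37.2% to 69.9%) and 15 at D8 (38.5%, 23.4% to 55.4%). Over all coding genes the shares were 57.1%, 52.0%, 58.3% and 53.2%, each within the interval of the Hox genes. In all 4 libraries 14 Hox genes had a promoter peak, and 17 had none in any, and the same counts over all coding genes are not given here. The latter were Hoxa2, Hoxb1, Hoxb2, Hoxb4, Hoxb7, Hoxb8, Hoxc4, Hoxc5 and the 9 Hoxd genes. Some of these had peaks just past the promoter window, such as Hoxb2 at 362 bp downstream of its TSS (pileups of 32, 11, 31 and 17). With promoters from 2000 bp upstream to 1000 bp downstream, 24, 20, 26 and 21 Hox genes had a peak. The share of all coding genes for that window is not given here. Of the 8 genes of groups 1 to 3, 5 had none, against 7 of 15 in groups 4 to 8 and 5 of 16 in groups 9 to 13.

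**Figure D2:**
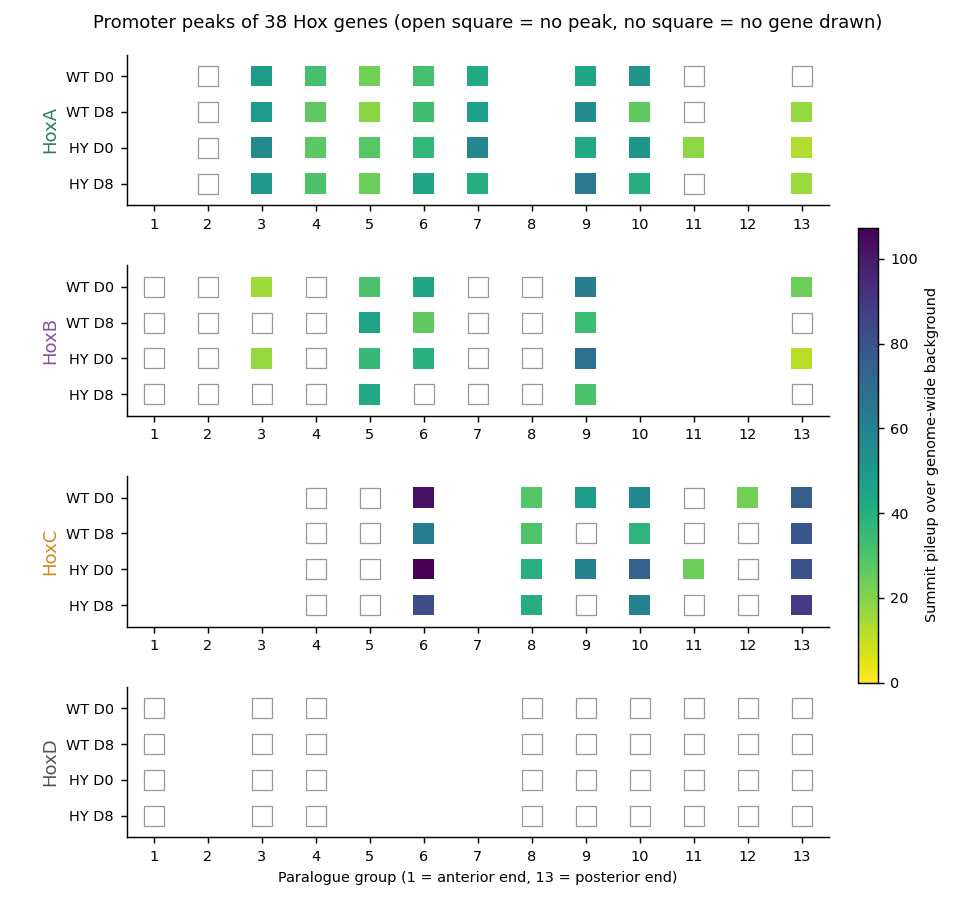
Promoter peaks of 38 of the 39 Hox genes by cluster and paralogue group in 4 libraries, filled squares coloured by summit pileup over the genome-wide background and open squares without a peak. HoxA is filled in most positions, HoxC from group 6 upward in part, HoxB around groups 5, 6 and 9, and HoxD nowhere.

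Counting any annotated TSS, HoxA was the cluster with the most complete set of open promoters, 8, 9, 10 and 9 of 11 genes in the 4 libraries. By the TSS closest to the start codon it had 5, 6, 8 and 6 of 11, and in WT D0 HoxC had 5 of 9. Hoxa6 and Hoxa10 had no peak at that TSS in any library. Hoxa9, a posterior gene used in limb and blood progenitors, had promoter pileups of 29, 30, 30 and 32, the highest of its promoter sites in each library. They came from different sites on the 2 days, and over the genome-wide background they were 44.0, 56.5, 42.4 and 64.8, higher at D8 in both genotypes. Hoxa5, which is active in the anterior trunk and in fat, had 15, 10, 20 and 12. Hoxa10 had 34, 14, 36 and 20, and at its pair of promoter sites the D8 to D0 ratio of scaled pileup (pileup over the genome-wide background) was 0.511 in WT (0.253 to 0.978) at each and 0.818 (0.448 to 1.46) and 0.676 (0.356 to 1.24) in HY. In these bulk nuclei, fewer cells open at a site and less opening per cell cannot be told apart. Hoxa13, the most posterior gene, was near the limit of detection with no peak in WT D0 and pileups of 9, 9 and 8 in the others, and Hoxa11 had a peak of 13 in HY D0 alone. Among the strongest sites open in all 4 libraries were a coding exon of Hoxa9 (29, 27, 30 and 31) and the 5′-most Hoxa3 TSS (32, 26, 40 and 25). At the Hoxa9 exon the scaled D8 to D0 ratio was 1.16 in WT (interval 0.658 to 2.02) and 1.48 in HY (0.866 to 2.53), so neither interval excluded equality.

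HoxB had open sites along much of its length, with promoter peaks mainly at Hoxb9, Hoxb6 and Hoxb5, central and posterior genes of the trunk. Promoter peaks were found at 5, 3, 5 and 2 of its 10 genes. Hoxb9 had promoter pileups of 41 at D0 against 18 at D8 in WT, and of 48 against 15 in HY. Hoxb6 had a pair of promoter sites, with pileups of 20, 14 and 28 at one and 29, 14 and 25 at the other, and no peak at either in HY D8. Hoxb5 had 20, 24, 25 and 21, without the lower D8 values of Hoxb9. Hoxb13 and Hoxb3 had promoter peaks at D0 alone, 16 and 8 for Hoxb13 and 10 and 12 for Hoxb3 in WT and HY. The window's strongest site at D0 lay past its anterior end, 47.6 kb from a Hoxb1 TSS, with pileups of 53, 23, 62 and 20. It was chosen after its values were seen. Between Hoxb13 and Hoxb9, the long gap of this cluster, 40.7 kb had no peak in any library.

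HoxC held the highest pileup of the 4 clusters in every library. Hoxc8, Hoxc9 and Hoxc10 are genes of the posterior trunk and are known from subcutaneous white fat. The site in an intron of Hoxc6, 1102 bp upstream of an internal TSS, had a pileup of 68 at D0 and 33 at D8 for WT and of 76 and 41 for HY, higher at D0 in both genotypes. Its scaled D8 to D0 ratio was 0.602 in WT (0.385 to 0.926) and 0.773 in HY (0.515 to 1.14). The Hoxc13 promoter had 50, 42, 57 and 44, with ratios of 1.04 (0.675 to 1.60) and 1.11 (0.729 to 1.67). Hoxc10 had 38, 20, 52 and 30 at its promoter and Hoxc8 had 19, 16, 28 and 20. Hoxc9 had 32 and 43 at D0 and no promoter peak at D8, where a peak would have needed a pileup of about 11 in WT and 13 in HY on the background of the nearest called peak. A second Hoxc9 site, 461 bp downstream of a TSS, was called in all 4 libraries with 31, 11, 32 and 16, so the gene was not without peaks at D8. Hoxc4 and Hoxc5 had no promoter peak. WT D8 had no peak over 30.8 kb that ran from inside Hoxc6 through Hoxc5 to the end of Hoxc4. Stretches were cut off at the outermost genes.

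Tags counted over 10 kb around each summit gave a second measure, with far more tags behind each value. The count can be had only where a peak was called, and neighbouring sites share tags. In HoxC it peaked near Hoxc6 and Hoxc10, at 1101, 453, 1516 and 652 tags. Relative to the genome-wide rate these were 15.0, 7.68, 19.3 and 11.9. The D0 values were above those of 99.5% (WT) and 99.8% (HY) of all sites. In HoxA the highest values lay at Hoxa9, 9.69, 9.12, 12.2 and 10.2 times the rate, close together in WT. In HoxB they lay at Hoxb9, 8.91, 4.39, 7.38 and 4.79 times the rate.

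**Figure D3:**
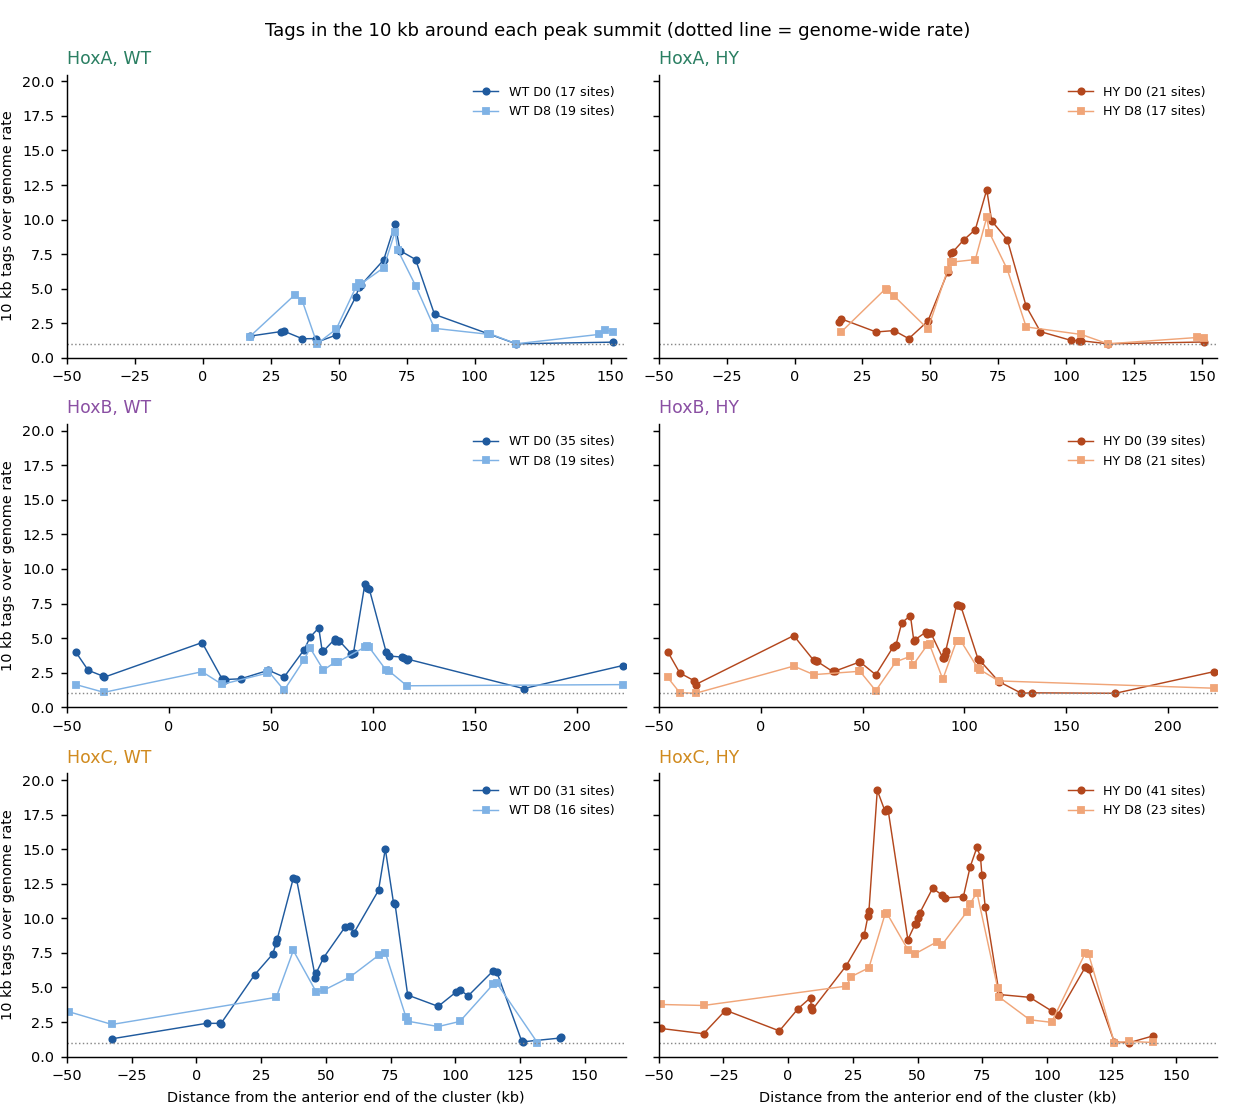
Tags in the 10 kb around peak summits relative to the genome-wide rate (linear axis), against distance in kb from the anterior end of HoxA, HoxB and HoxC, for D0 (circles) and D8 (squares) in WT and HY (3 HoxA sites not drawn). In HoxB the D8 points lie below the D0 points at 19 of 19 sites with both in WT and at 19 of 20 in HY. In central HoxC the D8 points lie below D0 in both genotypes, whereas in HoxA they lie above D0 near Hoxa4.

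The day comparison asked which Hox sites opened or closed with differentiation. Over the sites with a peak on both days, the median D8 to D0 ratio of scaled pileup was 0.817 at 48 Hox sites in WT and 0.870 at 56 in HY, against 0.896 and 0.884 over all such sites. In WT 6 Hox sites were at least 2-fold lower at D8, where the share over all sites was 14.7%, and 1 was at least 2-fold higher, where it was 4.79%. In HY 5 were lower (17.2% over all sites) and 4 were higher (5.28%). No site was 2-fold lower in both genotypes. By cluster the median was 0.931 in WT and 0.976 in HY for HoxA, 0.644 and 0.835 for HoxB, and 0.807 and 0.935 for HoxC. On the 10 kb counts it was 1.01 and 0.950 for HoxA, 0.660 and 0.652 for HoxB, and 0.608 and 0.784 for HoxC, with 0.902 and 0.886 over all sites. In HoxB 19 of 19 sites in WT and 19 of 20 in HY had a 10 kb ratio below 1, where the share over all sites was 61.6% and 62.7%. For HoxC the direction turned with the scale: with the deposited fold over local background the medians were 1.11 in WT and 1.13 in HY, and the cause of the turn was not tested. On that scale HoxB was at 0.907 and 0.958 and HoxA at 0.767 and 0.918, against 0.893 and 0.853 over all sites, so HoxB was no longer below the median of all sites.

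**Figure D4:**
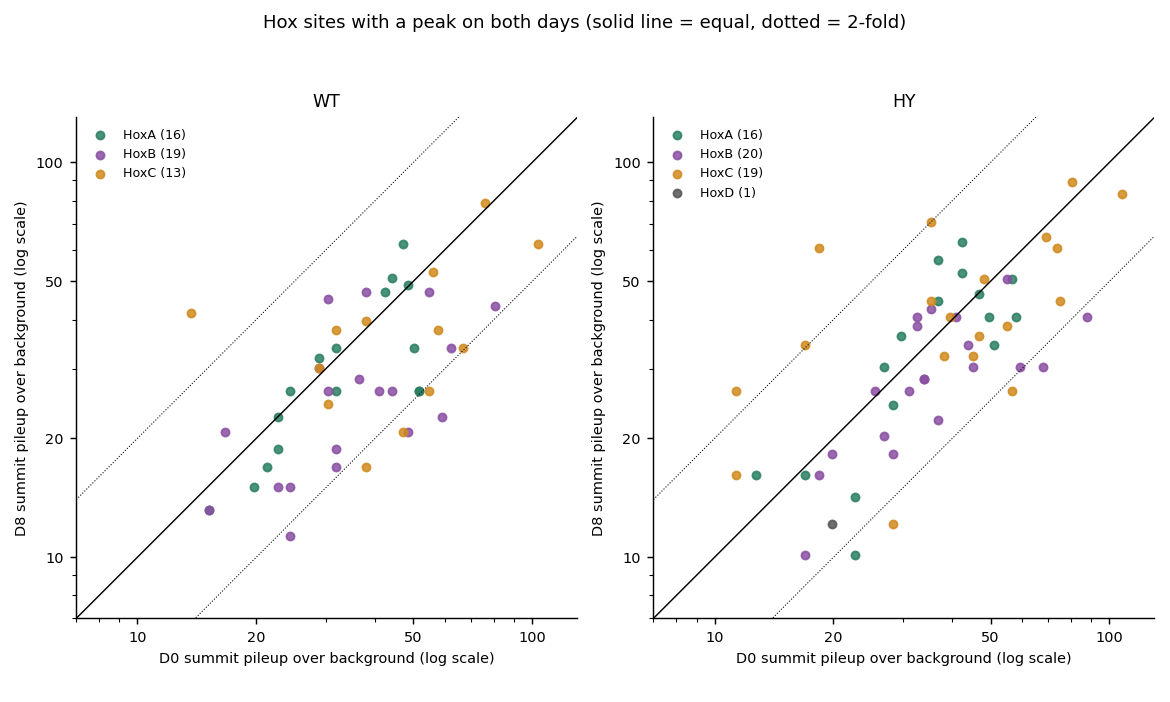
D8 against D0 summit pileup over the genome-wide background (both axes log scale) at Hox sites with a peak on both days, coloured by cluster, with lines of equality and of 2-fold difference. Most HoxB points lie under the line of equality, 15 of 19 in WT and 16 of 20 in HY, and a HoxC site lies far above it in both panels.

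The site far above equality lay in intergenic DNA, 35.1 kb from the nearest annotated TSS of Hoxc4. It had pileups of 9, 22, 13 and 30, so both D8 libraries were above both D0 libraries. The scaled ratio was 3.03 in WT (1.34 to 7.49) and 3.30 in HY (1.67 to 6.90). The 10 kb count around it was 94, 137, 130 and 203 tags, a scaled ratio of 1.81 (1.38 to 2.38) and 2.24 (1.79 to 2.81). Among sites with a peak on both days it was the only Hox site with a summit pileup at least 2-fold higher at D8 in both genotypes. On the 10 kb counts the highest ratios of such Hox sites were 2.99 in WT and 2.28 in HY, at a site 234 bp upstream of a Hoxa4 TSS. The scaled summit pileup of that site was 31.9 at D0 and 26.4 at D8 in WT, and 26.9 and 30.4 in HY. Its 10 kb also take in a site with peaks at D8 alone, 2438 bp downstream of a Hoxa4 TSS.

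Merged sites fell into patterns of libraries. Of the 126 Hox sites, 44 (34.9%) had a peak in all 4 libraries, against 24.2% over the genome. A further 21 (16.7%) had a D0 peak and no D8 peak in both genotypes, against 24.6%, and 4 (3.17%) had the reverse, against 6.00%. In HY D0 alone 24 sites were called (19.0%, against 16.8%), 14 of them in HoxC, and in WT D0 alone 10 (7.94%, against 9.01%). Of the 21 D0 sites 11 were in HoxB, 7 in HoxC, 2 in HoxA and 1 in HoxD.

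By -log10 q in the weaker genotype, the 5 highest D0 sites without D8 peaks were at Hoxc4, Hoxb3, Hoxc9 and Hoxa3. By pileup other sites of this pattern stood above some of them, such as one 6085 bp upstream of a Hoxc10 TSS with 41 in WT and 31 in HY. The Hoxc4 intron site reached 25 in WT and 31 in HY, and a D8 peak would have needed about 5 and 4. In Hoxb3, which acts in the hindbrain and trunk, a site 4909 bp downstream of a TSS had 21 and 27 and one 295 bp downstream had 17 and 23, with 6 needed at D8 in each genotype. The Hoxa3 intron site had 16 and 16, with 10 and 9 needed. The Hoxc9 promoter, given above, completed them. Of these the Hoxa3 site was nearest to that limit.

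The 4 sites of both genotypes that had peaks at D8 alone were 3 in HoxA and 1 in HoxC. The site 2438 bp downstream of a Hoxa4 TSS, in introns of Hoxa3 and 2700086A05Rik, reached 28 in WT and 33 in HY. A D0 peak there would have needed about 5 and 7. Around it the 10 kb held 269 and 270 tags at D8. A site in the untranslated region of Hoxa9 had 30 and 32, with 16 and 17 needed at D0, and another Hoxa9 site, 541 bp upstream of a TSS of that gene, had 25 and 25 at D0 and none at D8, a pair of neighbouring sites with opposite patterns. The remaining ones were 42.6 kb upstream of Hoxa13 (14 and 12, about 5 needed) and an intron of Hoxc11 (11 and 15, about 10 needed).

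Of the D8 peaks in the Hox windows, 10 of 66 in WT were differentiation-specific, meaning that no D0 peak covered at least 50% of them, or 15.2% (7.51% to 26.1%) against 27.8% of the whole list. In HY it was 14 of 71, or 19.7% (11.2% to 30.9%) against 29.0%. For HoxA it was 7 of 27 D8 peaks in WT (25.9%) and 6 of 22 in HY (27.3%), close to the whole lists. For HoxB it was 0 of 21 and 2 of 24, and for HoxC 3 of 18 and 6 of 24. Of the D0 peaks 66 of 93 in WT were preadipocyte-specific, 71.0% (60.6% to 79.9%) against 73.9%, and 68 of 111 in HY, 61.3% (51.5% to 70.4%) against 72.6%. These counts moved with list length. With all lists limited to the 41228 peaks of highest -log10 q, the Hox windows held 55, 66, 52 and 63 peaks, so the order of the days turned. Differentiation-specific shares were then 31.8% in WT and 38.1% in HY, against 36.5% and 35.6% of the shortened lists, and preadipocyte-specific shares 65.5% in WT and 51.9% in HY, against 63.1% and 61.1%. A Hox share below that of the list was thus not kept for HY at D8 or WT at D0, and sites of both genotypes numbered 6 at D0 alone and 12 at D8 alone.

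**Figure D5:**
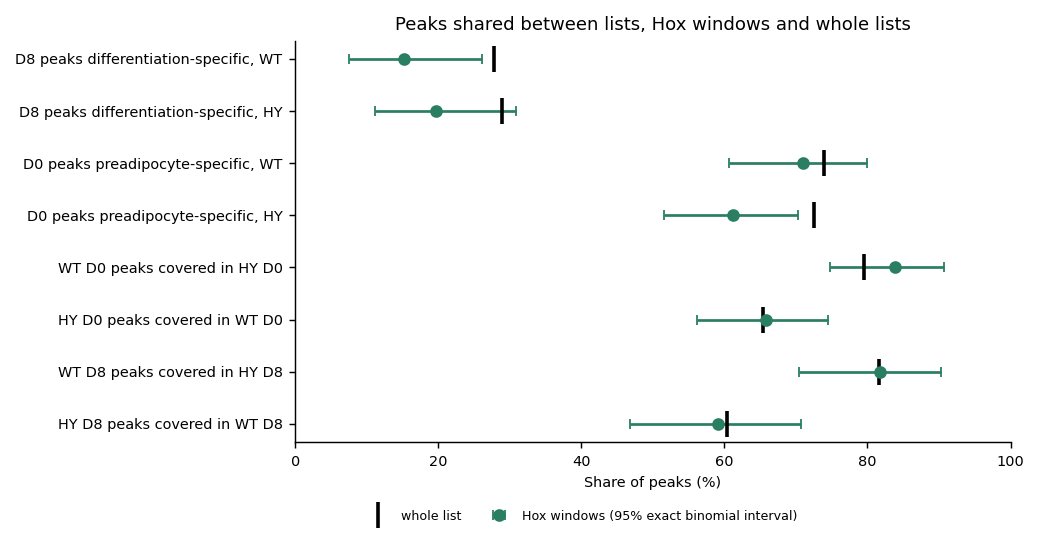
Share of peaks (percent) in the Hox windows with exact binomial intervals and in the whole lists, for peaks specific to a day and for peaks covered in the other genotype. The 4 day-specific shares of the full lists lie below the whole list, with intervals that exclude it for the WT differentiation-specific and the HY preadipocyte-specific share, and the 4 genotype shares lie close to it.

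The genotype comparison asked whether the inactive demethylase went with other open Hox sites. Of the WT D0 peaks 83.9% (74.8% to 90.7%) were covered in HY D0, against 79.5% of the list, and 65.8% (56.2% to 74.5%) of the HY D0 peaks in WT D0, against 65.4%. At D8 it was 81.8% (70.4% to 90.2%) of WT peaks, against 81.6%, and 59.2% (46.8% to 70.7%) of HY peaks, against 60.4%. Each interval included the share of the whole list. No Hox site had peaks on both days of WT and none in HY (0.321% over all sites), and 1 had the reverse (0.794%, against 0.899%), in the untranslated region of Hoxc6, with 39 in HY D0 and 19 in HY D8. A WT peak there would have needed about 20 and 13. The median HY to WT ratio of scaled pileup was 1.06 at 77 Hox sites at D0 (1.06 over all sites) and 1.23 at 51 at D8 (1.11). At D8 it was 1.34 at 15 HoxC sites, 1.15 at 19 in HoxA and 1.07 at 17 in HoxB. Chromosome Y held 1 peak in each WT list, 7 in HY D0 and 6 in HY D8, and the part of such differences between the cultures in the Hox values was not tested.

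The Hox sites were rich in CpG and poor in AP-1 matches. Within 100 bp of the summit the median GC content was 57.0% and the median number of CpG 8, against 50.2% and 3 over all sites. Hox sites open in all 4 libraries had a median of 10.5 CpG and those open at D0 alone 10, where all sites of the same patterns had 7 and 2. On both strands, TGANTCA, the AP-1 letters, was found at 10 of 126 Hox sites (7.94%, 3.87% to 14.1%), against 22.0%. Among sites with at least 5 CpG it was 5 of 98 (5.10%, 1.68% to 11.5%), against 10.8%, and among the others 5 of 28 (17.9%, 6.06% to 36.9%), against 26.9%. Within each CpG class the interval thus included the share over all sites. The CTCF consensus was found at 0 of 126 sites (upper limit 2.89%), against 2.80%. TGATNNAT was found at 11 (8.73%, 4.44% to 15.1%), against 7.74%, and TAATTA, the homeodomain core, at 3 (2.38%, 0.494% to 6.80%), against 2.80%. Of the 21 D0 sites of both genotypes, 3 held TGATNNAT, those printed for Hoxa3, Hoxb3 and Hoxc4, and over all sites of that pattern 10.5% did. Of the 44 Hox sites open in all 4 libraries 5 held it, and over all sites of that pattern 4.26% did, so the letters were not particular to D0 sites. A match is a description of the letters, and no match says only that these letters are not in the window.

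Among genes that act with or on Hox genes, the share with an open promoter differed by list, where that of all coding genes was 57.1%, 52.0%, 58.3% and 53.2%. The TALE homeodomain partners of HOX proteins (Pbx, Meis and Pknox) had promoter peaks at 9, 8, 9 and 9 of 9 genes. Among them Meis3 had a pileup of 35 in WT D0, 41 in HY D0 and 9 in HY D8 and no peak in WT D8. All 13 Polycomb genes had peaks in all 4 libraries, among them Ezh2, the H3K27 methyltransferase, with 45, 43, 50 and 45. Of the activators and architectural genes 6 of 7 had peaks in every library, and Kdm6b, an H3K27 demethylase, had none. Among upstream regulators 4, 4, 4 and 3 of 9 had peaks. Rarb, a retinoic acid receptor, had 20, 8, 30 and 7, and Cdx1, Cdx2, Cdx4, Cyp26a1 and Cyp26b1 had none. Evx1 and Evx2, the even-skipped genes at the posterior ends of HoxA and HoxD, had none.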

How the data were processed

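ATAC-seq peak lists of 4 libraries (WT and HY im-scWAT cells, D0 and D8) were used, 1 library per group, grouped by the labels. The authors trimmed, aligned and deduplicated reads and called peaks on each library alone. Bowtie2, SAMtools, Picard and deepTools are named for mm9 in the submitters' processing notes, and versions, the calling threshold and any Tn5 shift are not given in the sources used here. An unshifted read end moves a summit by a few bp. The authors deposited, for each peak, the fold of summit pileup over local background (a ratio, not normalised between libraries), the -log10 p and -log10 q of the summit, and a whole-number score, which was not used. Summits are the deposited offsets from the peak start.

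Fold and -log10 p were solved for a whole-number pileup and the local background, within 0.002 for 100% of peaks (0.796% to 1.40% with shuffled p). The lowest background is the genome-wide rate, used to scale pileups, and total reads are unknown. All higher backgrounds were whole multiples of 0.009 (within 0.05 of a multiple), as 90 bp tags, the width of the shortest peak, give when counted over 10 kb. Peaks were merged at 1 bp of overlap. Ratio intervals are conditional binomial and share intervals Clopper-Pearson, both at 95%. Pileup needed for a missing peak used the lowest -log10 p called and the background of the nearest peak within 10 kb, or else the genome-wide rate. Genes, TSSs and sequence came from NCBIM37 with GENCODE M1, with 1-based coordinates, and Hoxa3 has 2 gene entries taken as 1. The CTCF consensus was searched on both strands. Overlaps of TGATNNAT with the other motifs were allowed.

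Sites were named by rule: in each cluster the 3 sites with a peak in all 4 libraries and the highest pileup in their weakest library, up to 5 sites for each day or genotype pattern by -log10 q, sites past 2-fold in both genotypes, and the longest stretch without a peak. Some genes and sites that the rules name are not reported here. Members, lists and rules were chosen with earlier results of these data known. The alternatives were other flanks, promoter windows, overlaps, motif windows and scalings, a -log10 q of at least 5 and lists of equal length. The 10 kb counts were added after seeing the data. Scripts were tested on simulated data, with Python 3.11.15, numpy 2.4.6, pandas 2.3.3, scipy 1.17.1 and matplotlib 3.10.9.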

Additional observations from a re-analysis of the deposited data

Results flagged for a closer look

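Some effects had opposite signs in the 2 genotypes or on the 2 days. None of these differences was tested, since each rests on 1 library per group. From D0 to D8 the number of peaks in the HoxA window differed by 5 in WT (22 to 27) and by -4 in HY (26 to 22), so HY exceeded WT by 4 before differentiation, and the difference was -5 after it. With every list at the same length the HoxA window had 15 and 27 peaks in WT and 13 and 19 in HY, so the opposite signs were not kept. HoxA genes with a promoter peak differed by 1 in WT and by -1 in HY, through Hoxa13 and Hoxa11. Over all Hox genes the difference of HY from WT was 2 genes before and -1 after differentiation, and with lists of equal length it was 14 against 16 genes before and 15 against 16 after, so the opposite signs were not kept. The HoxA median of the HY to WT pileup ratio was 0.975 at D0 and 1.15 at D8.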

How the results depend on the processing

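Of 136 recomputed values under 15 alternatives, 108 stayed and 28 moved, and the cause of each move was not tested. To stay meant within 1.5 times of the reported count, the interval of the reported share or the limit set for a ratio. A reversal could be called only for the median D8 to D0 ratios over all Hox sites, and 0 were. The order of the days in peak counts and the medians by cluster, which turned as given above, were outside this tally. With lists of equal length, D0 peaks in the Hox windows numbered 55 (WT) and 52 (HY), the window share covered in HY D0 was 2.65%, differentiation-specific shares were 31.8% (WT) and 38.1% (HY), 74.5% of WT D0 peaks were covered in HY D0 (81.8% of the whole list) and 76.9% the reverse (75.0%), and open sites numbered 83, of which 27 in all 4 libraries, 6 at D0 alone and 12 at D8 alone. The longest HoxA stretch without a peak was then 19293 bp. With a -log10 q of at least 5, WT D8 had 43 peaks, 28 sites were open in all 4 libraries, 51.2% of HY D0 peaks were preadipocyte-specific (66.7% of the whole list), and 91.7% of WT D0 peaks were covered in HY D0 (87.6%) and 78.6% the reverse (76.4%). With an overlap of 1 bp preadipocyte-specific shares were 46.2% (WT) and 46.8% (HY), against 60.7% and 57.3% of the whole lists, and 73.2% of HY D8 peaks were covered in WT D8 (69.6%). Differentiation-specific shares were then 15.2% (WT, 7.51% to 26.1%) and 12.7% (HY, 5.96% to 22.7%), against 24.4% and 25.5%. By this rule the whole lists held 10052 (WT) and 12500 (HY) such peaks, nearer to the paper's numbers than by the 50% rule (11466 and 14181). With a reciprocal overlap of 50% differentiation-specific shares were 59.1% (WT) and 47.9% (HY), against 57.3% and 58.7%, so the WT share was no longer below the list, and WT peaks covered in HY were 73.1% at D0 (66.5%) and 62.1% at D8 (68.2%). Without flanks the share covered at D0 was 5.55% (WT) and 6.55% (HY). With 250 bp on each side, 16.7% of Hox sites held TGATNNAT (18.4% of all sites) and 15.1% TAATTA (9.44%; interval of the Hox share 9.33% to 22.5%).

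By its TSS closest to the start codon, a Hox promoter had a peak in 14, 12, 17 and 11 genes in WT D0, WT D8, HY D0 and HY D8 (35.9%, 30.8%, 43.6% and 28.2%, against 50.9%, 46.0%, 51.9% and 47.3% of coding genes). For HY D8 the share of coding genes lay outside the Hox interval (15.0% to 44.9%). The 10 kb counts, added after seeing the data, gave median ratios of 0.721 (WT) and 0.789 (HY). No paired analysis was run, and no result came from a test. Each group had 1 library, and the labels do not say whether D0 and D8 of a genotype share a culture. Pileups of 5 to 76 leave wide counting intervals, and a site without a peak may be open below the threshold.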
